A study of Mus musculus with 12 samples.

Results

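Naive pluripotency in mouse embryonic stem cells (mESCs) is held by a network of transcription factors that reaches beyond the core genes Pou5f1, Sox2, Nanog, Esrrb and Zfp42. Described here are 10 genes of that wider network, Klf2, Klf4, Klf5, Tbx3, Tfcp2l1, Prdm14, Dppa3, Nr0b1, Sall4 and Tcl1. They were taken by gene symbol, all 10 had values in both RNA-seq tables, and they are 10 of 21905 protein-coding genes with coordinates and a level. The study compared chromatin binding of Ctr9, a subunit of the Paf1 elongation complex (Paf1C), and RNA between E14 mESCs and NIH3T3 cells, an established line of mouse fibroblasts. ChIP-seq peak lists cover Ctr9-GFP, H3K27ac (an acetylated histone of active promoters and enhancers), NELFA-GFP (a subunit of the pausing factor NELF) and RNA polymerase II phosphorylated on serine 5 (RNAPII Ser5p, early in transcription) or serine 2 (RNAPII Ser2p, late in transcription) in mESCs, and Ctr9-GFP and H3K27ac in NIH3T3 cells. The 7 lists and the 2 RNA-seq tables rest on 1 library each, and without replicates no test was made.

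Both lines were grown in the same serum medium with LIF, the cytokine that sustains mESCs, so the NIH3T3 cells had LIF as well. Ctr9 carried GFP at its C terminus from a knock-in at its own locus in both lines, and sorted pools of GFP-positive cells were used rather than clones. The mESCs of the NELFA and RNAPII Ser5p libraries carried the GFP tag on NELFA. Whether the cells used for RNA-seq carried a tag is not stated in the sources used here. Marker genes were checked against the labels of both lines. All 8 mESC marker genes were at 146 to 3190 TPM (abundance of transcripts scaled by length and library size) in mESCs and at most 0.511 TPM in NIH3T3 cells. All 8 fibroblast marker genes were at 39.6 to 1082 TPM in NIH3T3 cells, and in mESCs they reached at most 5.69 TPM except Fn1 at 75.7 TPM. The 4 primitive endoderm markers stayed at or below 2.21 TPM in mESCs. In bulk RNA, fewer cells expressing a gene and less RNA per cell cannot be told apart.

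The naive state is the ground condition of the preimplantation epiblast, and mESCs keep it in culture through LIF and STAT3, BMP and WNT signalling. Klf4, Klf5, Tbx3 and Tfcp2l1 are known as genes through which LIF and WNT signals reach the network, Klf2 as a factor that supports it when MAPK signalling is low, and Prdm14 as a repressor of FGF signalling and DNA methylation. Nr0b1, Sall4 and Tcl1 are known targets or partners of OCT4, the product of Pou5f1, and Dppa3 protects methylation marks in the early embryo and marks the most naive cells of a culture. Super enhancers (SEs) are long clusters of enhancers with much bound transcription machinery, and many lie near pluripotency genes. The SEs used here are the 231 that the study lists in the mouse assembly mm10.

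RNA levels separated the 10 genes into groups. Levels are the TPM of the most abundant transcript of each gene, and a gene was called past 4-fold when log2(TPM + 1) differed by at least 2. By that measure 7 of the 10 genes were higher in mESCs and 0 were lower, beside 9.46% and 8.81% of the 12379 protein-coding genes with at least 1 TPM in either line. The median difference over the 10 was 5.09 on the log2(TPM + 1) scale, and over all genes tested it was 0.13. The 10 were chosen as factors of pluripotent cells, so neither the count nor the median is independent of the choice of genes. The genes that did not pass were Klf4, Tbx3 and Dppa3. With levels taken from the most abundant coding transcript, an alternative chosen after the values were seen, Tbx3 passed at 2.10 and 8 genes were higher, beside 9.51% of 12145 genes. In mESCs, 8 of the 10 were in the highest 25% of expressed protein-coding genes, which began at 21.6 TPM, and Prdm14 and Dppa3 were in the middle class. In NIH3T3 cells Klf4 was in the highest class, Klf2, Klf5 and Tbx3 in the middle class, Tfcp2l1 and Prdm14 in the lowest class, and the other 4 were listed at 0.

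**Figure D1:**
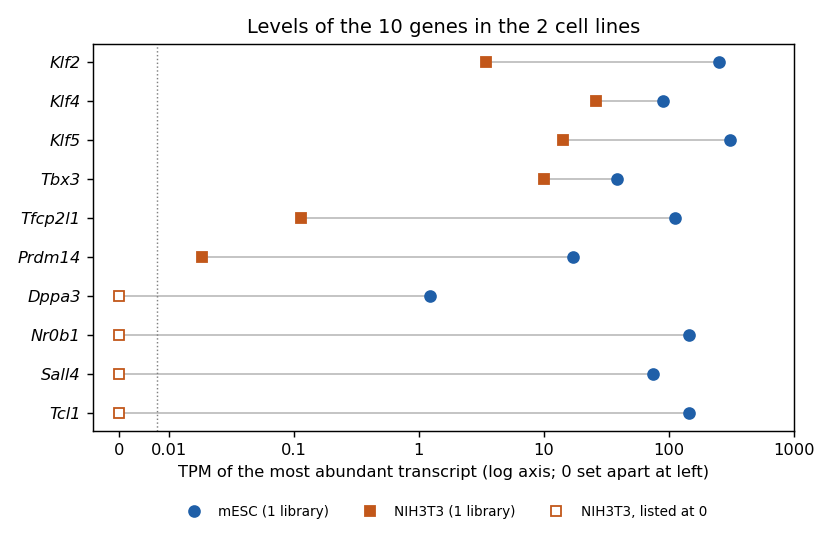
TPM of the most abundant transcript of each gene (log axis, with 0 set apart at the left) in mESCs (circles) and NIH3T3 cells (squares, open where listed at 0), 1 library each. Every gene was higher in mESCs, from 1.23 TPM for Dppa3 to 310 TPM for Klf5, and only Klf4, Klf5, Tbx3 and Klf2 exceeded 1 TPM in NIH3T3 cells.

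Sequences are shown to place the polymerase signal on the promoters. The RefSeq promoter table of GRCm38.p6, the assembly also called mm10, held 5 of the 10 genes (Klf2, Klf4, Tfcp2l1, Nr0b1 and Tcl1), as 250 bases before and 50 after the start, and Klf5, Tbx3, Prdm14, Dppa3 and Sall4 were not in it. The first 4 had an RNAPII Ser5p summit within 1 kb of the start, and Tcl1 is shown as the gene that had none. Each is written 5′ to 3′ on the strand of the gene, with capitals for matches on either strand to 1 of 5 motifs: ATGCAAAT (OCT family), TCAAGGTCA (ESRRB), TTCCNGGAA (STAT), GGGNGTGG (KLF) and TATAAA (the core promoter box bound by TBP).
Klf2 promoter, chr8:72318812-72319111, plus strand: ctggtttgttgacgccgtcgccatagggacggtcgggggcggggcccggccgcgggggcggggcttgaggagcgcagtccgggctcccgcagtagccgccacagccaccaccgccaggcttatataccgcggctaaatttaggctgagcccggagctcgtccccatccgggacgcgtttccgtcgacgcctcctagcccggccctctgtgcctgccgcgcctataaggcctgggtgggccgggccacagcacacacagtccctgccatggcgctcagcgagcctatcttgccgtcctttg
Klf4 promoter, chr4:55532426-55532725, minus strand: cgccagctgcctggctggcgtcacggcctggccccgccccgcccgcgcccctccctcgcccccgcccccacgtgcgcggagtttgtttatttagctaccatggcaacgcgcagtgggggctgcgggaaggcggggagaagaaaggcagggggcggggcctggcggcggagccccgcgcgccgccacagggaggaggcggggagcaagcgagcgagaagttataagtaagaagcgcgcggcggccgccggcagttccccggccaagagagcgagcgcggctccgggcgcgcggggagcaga
Tfcp2l1 promoter, chr1:118627695-118627994, plus strand: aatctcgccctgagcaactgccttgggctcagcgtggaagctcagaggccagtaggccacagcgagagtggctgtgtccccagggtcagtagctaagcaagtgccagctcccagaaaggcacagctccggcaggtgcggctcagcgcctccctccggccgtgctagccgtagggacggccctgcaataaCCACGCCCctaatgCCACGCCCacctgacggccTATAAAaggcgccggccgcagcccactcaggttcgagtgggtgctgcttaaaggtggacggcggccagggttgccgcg
Nr0b1 promoter, chrX:86191525-86191824, plus strand: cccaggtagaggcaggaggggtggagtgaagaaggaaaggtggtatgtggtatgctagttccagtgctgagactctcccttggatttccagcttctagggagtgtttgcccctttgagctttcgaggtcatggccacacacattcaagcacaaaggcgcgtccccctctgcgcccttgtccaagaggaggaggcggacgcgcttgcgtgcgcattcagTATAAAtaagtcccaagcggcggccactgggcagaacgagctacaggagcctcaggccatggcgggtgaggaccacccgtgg
Tcl1 promoter, chr12:105222688-105222987, minus strand: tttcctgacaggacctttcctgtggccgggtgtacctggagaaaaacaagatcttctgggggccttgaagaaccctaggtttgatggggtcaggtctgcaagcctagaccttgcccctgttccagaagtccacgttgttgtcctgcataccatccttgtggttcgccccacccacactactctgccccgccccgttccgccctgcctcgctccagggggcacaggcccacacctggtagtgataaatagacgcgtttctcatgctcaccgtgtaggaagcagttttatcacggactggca

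The Tfcp2l1 promoter held TATAAA with its first base at position -28 from the RefSeq start, and 2 KLF motifs on the opposite strand that began at -61 and -47. In the Nr0b1 promoter TATAAA began at -32. The Klf2, Klf4 and Tcl1 windows held no match to any of the 5 motifs, which says only that these letters are not in these windows. Among all 32851 promoters of the table, 13.6% held TATAAA, 17.6% the KLF motif, 1.74% the OCT motif, 1.15% the STAT motif and 0.423% the ESRRB motif. The G and C content ran from 56.7% in the Tcl1 window to 74.3% in the Klf4 window, and the CpG count from 11 to 40 in the same pair. Polymerase summits fell inside these windows at 3 genes. At Klf2 the NELFA summit lay 39 bases and the RNAPII Ser5p summit 48 bases after the RefSeq start, at Tfcp2l1 they lay 4 and 3 bases after it, and at Nr0b1 the RNAPII Ser5p summit lay 25 bases after it. All other distances below are from the annotated start of the protein-coding transcript with the highest TPM, which is GENCODE's and can differ from RefSeq's by some bases.

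Peaks near the 10 genes were counted within 50 kb of each gene and, more narrowly, at the gene, from 1 kb before its start to 5 kb past its end. A Ctr9 peak of mESCs lay within 50 kb of all 10 genes, beside 62.0% of all protein-coding genes, and at 9 of them, beside 44.1%. In the highest expression class 95.9% of genes had a Ctr9 peak within 50 kb and 91.9% had one at the gene. All 8 members of that class had both, so these counts are near their background. H3K27ac peaks of mESCs lay within 50 kb of all 10, beside 68.8% of all genes and 96.6% of the highest class. This count too is near the share of that class. They lay at 6 of the genes (43.1%, and 89.7% of the highest class). NELFA peaks lay within 50 kb of 6 (23.8%, and 45.9% of the highest class) and at 4 (10.4%, and 29.4% of that class). RNAPII Ser5p peaks lay within 50 kb of 9 (27.5%, and 53.4% of the highest class) and at 7 (12.8%, and 36.3% of that class). RNAPII Ser2p peaks lay within 50 kb of 6 (16.3%, and 33.1% of the highest class) and at 5 (6.99%, and 21.3% of that class). With peaks of a −log10 q of at least 5 both counts fell to 3, and the count at the gene was also 3 when the window past the end was narrowed to 1 kb.

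In NIH3T3 cells a Ctr9 peak lay within 50 kb of 6 of the genes, beside 44.4% of all genes, and at 4, beside 25.8%. The 4 were Klf2, Klf4, Klf5 and Tbx3, the same 4 that had at least 1 TPM in that line. In that line 65.8% of the highest class and 33.8% of the middle class had a Ctr9 peak at the gene. H3K27ac peaks of NIH3T3 cells lay within 50 kb of 6 (73.0% of all genes) and at 5 (54.7%), both below the share of all genes. The 5 were the same 4 and Tfcp2l1. At the gene, 97.5% of the highest and 90.2% of the middle class had such a peak. With peaks of a −log10 q of at least 5 the Ctr9 counts of NIH3T3 cells fell to 4 and 3. Klf5 then had no Ctr9 peak at the gene. An SE lay within 50 kb of 8 of the 10 genes, all but Nr0b1 and Tcl1, beside 2.15% of all protein-coding genes and 5.05% of the highest class. SEs of mESCs are defined by dense binding of pluripotency factors and coactivators, so this count is not independent of the choice of genes. Within 20 kb the count was 5. A Ctr9 peak of mESCs overlapped each of the 8 SEs, beside 176 of all 231 listed SEs (76.2%), so this count is not far from its background. With peaks of a −log10 q of at least 5 it was 7, because the 1 Ctr9 peak in the SE of Klf2 had a −log10 q of 3.64.

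**Figure D2:**
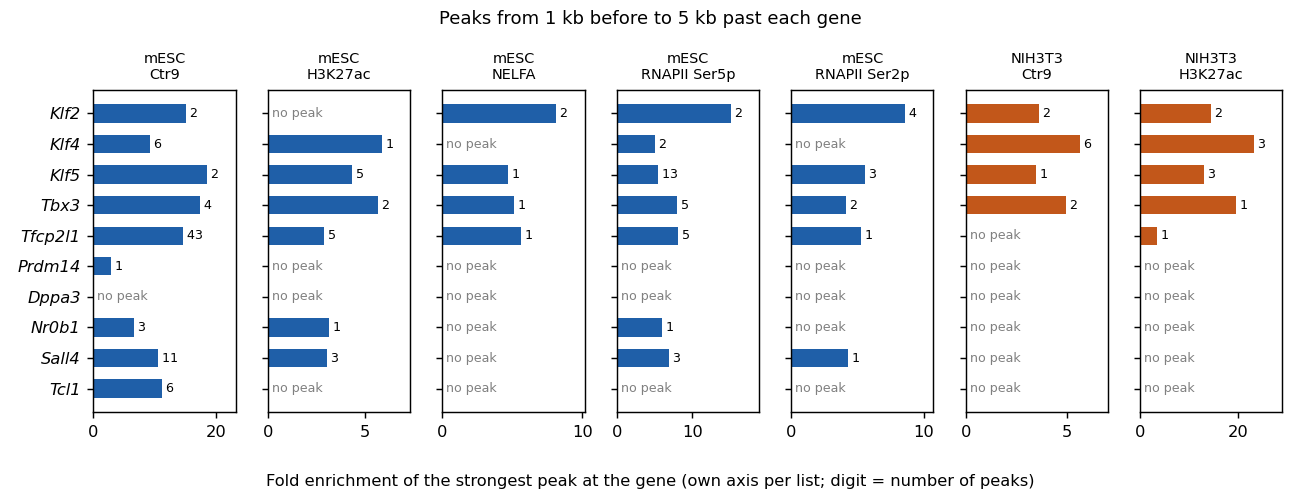
Fold enrichment of the strongest peak at each gene (bars) and the number of peaks there (digits) in the 7 lists, 1 library and 1 axis per list, so that bar lengths are not comparable between panels. The NIH3T3 Ctr9 panel has bars at Klf2, Klf4, Klf5 and Tbx3 only, and the mESC Ctr9 panel at every gene but Dppa3.

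Fold enrichment is the fragment pileup at a peak's summit, its highest base, over the local background, and its median over the whole mESC list was 3.71 for Ctr9, 3.97 for H3K27ac, 4.97 for NELFA, 4.66 for RNAPII Ser5p and 4.79 for RNAPII Ser2p. The lists give no read counts, so the depth behind these values is unknown, and values of different lists are set side by side without comparison. The Ctr9 list of mESCs held 44748 peaks, the NELFA list 1980 and the RNAPII Ser2p list 1675, so a gene without a peak in a short list may lie below its cutoff.

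The Krüppel-like factors are zinc finger proteins that bind GC-rich sites, and Klf2, Klf4 and Klf5 were the members of the family most abundant in mESCs. Klf5 (chr14:99298691-99315036, plus strand) was at 310 TPM in mESCs and 14.2 TPM in NIH3T3 cells, from 18524 and 915 estimated counts. That is a ratio of 21.9, with a 95% interval of 20.5 to 23.5 that covers counting error only, as do all intervals here. Its main transcript Klf5-201, which encodes 446 amino acids, held 99.7% of the gene's TPM in mESCs. Klf2 (chr8:72319033-72321656, plus strand) was at 251 TPM in mESCs and 3.48 TPM in NIH3T3 cells, a ratio of 72.1 (61.3 to 85.4). Klf4 (chr4:55527143-55532466, minus strand), a reprogramming factor that also acts in epithelia and fibroblasts, was at 89.7 TPM in mESCs and 26.3 TPM in NIH3T3 cells, a ratio of 3.42 (3.23 to 3.61).

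Of the 17 Klf genes, 14 had at least 1 TPM in either line. Of these 5 were at least 4-fold higher and 1 was lower in mESCs, beside 9.46% and 8.81% of all genes tested. The median difference was 1.17 on the log2(TPM + 1) scale. The 3 genes besides Klf2 and Klf5 that were higher were Klf8 at 20.9 TPM in mESCs and 0 in NIH3T3 cells, Klf11 at 17.6 and 2.82 TPM, and Klf15 at 10.7 and 0.064 TPM. The 1 that was lower was Klf7 at 1.89 TPM in mESCs and 12.4 TPM in NIH3T3 cells. In NIH3T3 cells Klf10 at 58.7 TPM, Klf6 at 37.6, Klf9 at 33.2 and Klf3 at 29.6 exceeded Klf4, whereas in mESCs Klf2 and Klf5 alone did, and the next below Klf4 was Klf9 at 79.0 TPM.

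At Klf5, Ctr9 of mESCs formed 1 peak of 20846 bases that covered 99.4% of the gene, and its summit, at 18.5-fold enrichment, lay 1392 bases past the gene end. RNAPII Ser5p gave 13 peaks from the start to past the end, the strongest (5.47-fold) 456 bases after the start. NELFA gave 1 peak (4.67-fold) 95 bases before the start. The 3 RNAPII Ser2p peaks all lay past the gene end, at 1380, 2300 and 3347 bases, and the strongest (5.57-fold) was 12 bases from the Ctr9 summit. In NIH3T3 cells the gene had 1 Ctr9 peak of 290 bases (3.48-fold) in a coding exon 337 bases after the start and H3K27ac up to 13.0-fold near the start.

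At Klf2, 1 Ctr9 peak of 6651 bases covered 97.9% of the gene, and its summit (15.1-fold) lay 1284 bases past the gene end. NELFA (8.13-fold) and RNAPII Ser5p (10.5-fold) had summits 67 and 76 bases after the start. A second RNAPII Ser5p peak, stronger at 15.1-fold, lay 1290 bases past the gene end, 6 bases from the Ctr9 summit, and a second NELFA peak (4.39-fold) lay 1045 bases past the end. RNAPII Ser2p had 4 peaks at the gene, the strongest (8.57-fold) 1774 bases past the end. No H3K27ac peak of mESCs lay at the gene, and the nearest was 2380 bases before the start, in the SE. In NIH3T3 cells, where the RNA was 3.48 TPM, H3K27ac summits of 14.4-fold and 7.85-fold flanked the start and 2 Ctr9 peaks of 3.62-fold and 3.17-fold lay in the gene.

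At Klf4, Ctr9 had 6 peaks in mESCs, and 72.4% of the gene body was covered. The strongest (9.17-fold) lay 738 bases past the gene end, and a further one of 6.24-fold lay 767 bases after the start. RNAPII Ser5p had 2 peaks at the gene, of 5.09-fold 553 bases after the start and of 4.76-fold 978 bases past the end, and neither NELFA nor RNAPII Ser2p had a peak there. Klf4 also had 6 Ctr9 peaks in NIH3T3 cells, the most of any of the 10 genes in that line, with the strongest (5.63-fold) 1102 bases before the start. H3K27ac at its promoter was 5.84-fold in mESCs and 23.3-fold in NIH3T3 cells, in lists whose medians were 3.97 and 6.75.

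**Figure D3:**
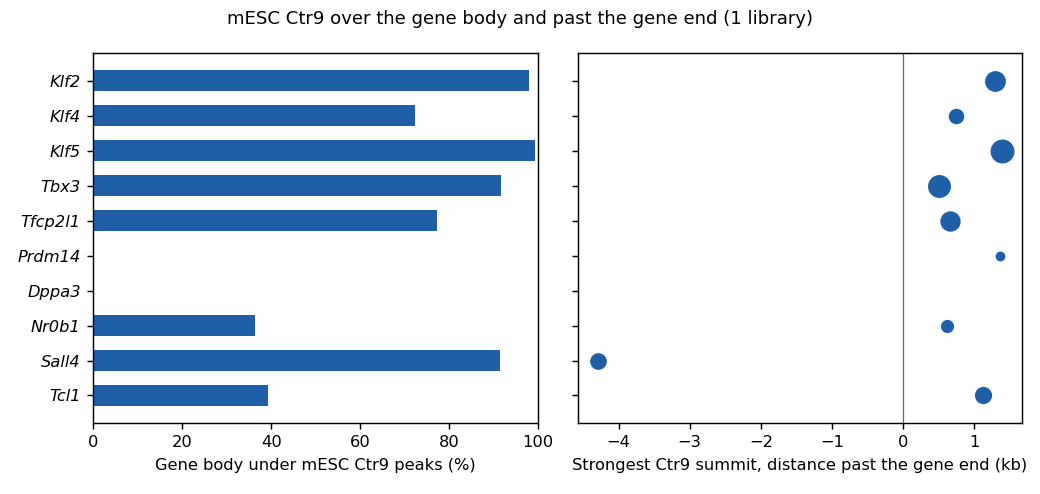
Share of each gene body under Ctr9 peaks of mESCs in percent (left) and distance of the strongest Ctr9 summit at the gene from the gene end in kb, positive past the end, with symbol size growing with fold enrichment (right). At 8 of the 9 genes with a summit it lay past the end; Sall4 was the exception and Dppa3 had none.

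This position of Ctr9 recurred across the genes. Of the 9 genes with a Ctr9 summit in the window from 1 kb before the start to 5 kb past the end, 8 had the strongest summit past the gene end, by 504 bases at Tbx3 to 1392 bases at Klf5. Among all protein-coding genes with such a summit the share was 59.2% of 9554, and in the highest expression class it was 75.8% of 3706, so the pattern is common to highly expressed genes. The share of the gene body under Ctr9 peaks was larger than at most genes: 99.4% at Klf5, 97.9% at Klf2, 91.6% at Tbx3, 91.5% at Sall4, 77.2% at Tfcp2l1 and 72.4% at Klf4, beside a median of 5.90% in the highest class and 0% over all genes. At Tcl1 it was 39.3% and at Nr0b1 36.3%, and at Prdm14 and Dppa3 it was 0%.

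Tbx3 (chr5:119670669-119684724, plus strand), a T-box factor that is used widely in development, was at 38.7 TPM in mESCs and 10.1 TPM in NIH3T3 cells. The most abundant transcript in both lines was Tbx3-204, a short transcript with a retained intron that is not annotated as coding. Its ratio was 3.83 (3.10 to 4.75), with an interval from its own 405 and 114 estimated counts that spans 4. The coding transcripts Tbx3-203 and Tbx3-201, of 721 and 741 amino acids, were at 35.2 and 31.7 TPM in mESCs and at 7.24 and 7.46 TPM in NIH3T3 cells. Their order was reversed between the lines, and no replicate shows whether that order is stable. Tbx2, the closest relative listed, was at 0.0590 TPM in mESCs and 0.653 TPM in NIH3T3 cells.

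At Tbx3 the start was marked in mESCs by NELFA (5.1-fold, 209 bases after it), RNAPII Ser5p (7.58-fold, 81 bases after it) and H3K27ac (4.62-fold, 474 bases before it). A Ctr9 peak of 9008 bases, 17.4-fold at its summit, ran over the end of the gene. In NIH3T3 cells both Ctr9 peaks (4.97-fold and 3.79-fold) lay in untranslated exon sequence near the gene end, and 1 H3K27ac peak of 5234 bases (19.6-fold) lay over the promoter. An SE began within the gene, 8721 bases after the start, and reached 50611 bases after it. It held the strongest H3K27ac peak that lay in any of the 8 SEs, 9.27-fold at 39271 bases, 4 RNAPII Ser5p peaks up to 7.93-fold and 2 RNAPII Ser2p peaks up to 4.10-fold. The 4 RNAPII Ser5p and the 2 RNAPII Ser2p peaks all overlapped the gene. The last RNAPII Ser5p summit (4.37-fold) lay 71 bases past the gene end, and no peak of either list lay farther out in the SE.

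**Figure D4:**
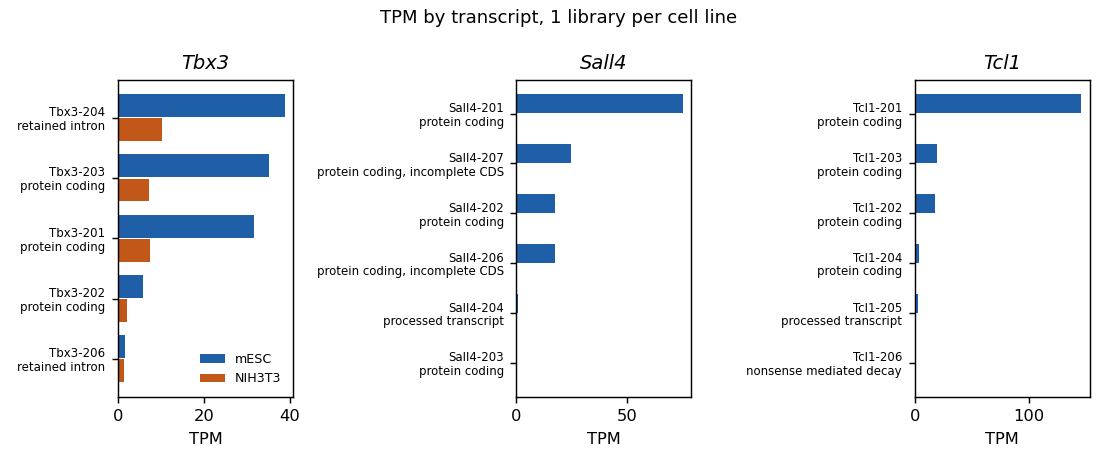
TPM by transcript for Tbx3, Sall4 and Tcl1 in mESCs (blue) and NIH3T3 cells (orange), 1 library each, with the annotated type of each transcript. Tbx3 had 3 transcripts above 30 TPM in mESCs, while Sall4-201 at 75.3 TPM and Tcl1-201 at 146 TPM led their genes and both genes were at 0 in NIH3T3 cells.

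Tfcp2l1 (chr1:118627945-118685168, plus strand), a grainyhead-like factor downstream of LIF and STAT3, was at 112 TPM in mESCs and 0.114 TPM in NIH3T3 cells. The estimated counts were 21866 and 24, and the ratio was 979 (658 to 1528). Its relatives differed less, with Tfcp2 at 5.61 and 4.60 TPM and Ubp1 at 21.9 and 19.9 TPM in mESCs and NIH3T3 cells. Tfcp2l1 is the longest of the 10 genes at 57224 bases, and 44 Ctr9 peaks of mESCs lay within 50 kb of it, 43 of them at the gene. NELFA and RNAPII Ser5p had summits 2 bases and 1 base after the start, of 5.65-fold and 8.12-fold. The strongest Ctr9 summit (14.6-fold) lay 658 bases past the end, and the 1 RNAPII Ser2p peak (5.21-fold) lay 1675 bases past it. The SE of Tfcp2l1 lay inside the gene, from 14189 to 20891 bases after the start, and Ctr9 peaks covered 85.2% of it, so Ctr9 on the SE and on the transcribed body cannot be told apart there. In NIH3T3 cells the gene had no Ctr9 peak and 1 H3K27ac peak of 177 bases (3.44-fold) in an intron.

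Prdm14 (chr1:13113457-13127163, minus strand), a PR domain protein of mESCs and germ cells, was at 17.1 TPM in mESCs from 862 estimated counts and at 0.0185 TPM from 1 count in NIH3T3 cells. The ratio was 929, and because of the 1 count its interval runs from 166 to 36730. The gene itself carried little signal. The only peak at the gene in any list was a Ctr9 peak of 2.90-fold and 733 bases, 1354 bases past the gene end. Its SE, which starts 8773 bases past the gene end, held 19 Ctr9 peaks up to 11.8-fold and 11 RNAPII Ser5p peaks up to 10.3-fold. Both maxima lay close together, 31908 and 31864 bases after the start, which is past the gene end and outside any other protein-coding gene. The SE held 5 H3K27ac peaks up to 3.36-fold and no NELFA or RNAPII Ser2p peak.

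Sall4 (chr2:168748332-168767943, minus strand), a zinc finger partner of OCT4 and NANOG, was at 75.3 TPM in mESCs and was listed at 0 in NIH3T3 cells. The floor there was 0.0596 TPM, the level of 3 counts over a shorter transcript of the gene than its most abundant one. Against that floor Sall4 was 1262-fold higher, or 1237-fold at the lower limit of its own counts. Over the most abundant transcript the floor would be lower, so 1262 is a low figure. The transcript Sall4-201, which encodes 1067 amino acids, held 55.5% of the gene's TPM, and Sall4-202, which encodes 278, was at 17.5 TPM. The transcripts Sall4-207 and Sall4-206, with incomplete coding sequences, were at 24.5 and 17.3 TPM, and kallisto may divide reads among such overlapping models with error. Its relative Sall1 was higher, at 106 TPM in mESCs and 0 in NIH3T3 cells, and Sall3 was at 3.99 and 0 TPM. Sall2 went the other way, at 0.477 TPM in mESCs and 8.07 TPM in NIH3T3 cells.

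Ctr9 had 11 peaks at Sall4 and covered 91.5% of the gene body. The strongest (10.5-fold, 7123 bases) had its summit in a coding exon 14578 bases after the start, and another of nearly the same width (9.51-fold, 7144 bases) lay 2063 bases past the end. RNAPII Ser5p had its strongest summit (6.94-fold) 247 bases after the start, and H3K27ac (3.02-fold) 288 bases after it. No NELFA peak was within 50 kb. The 1 RNAPII Ser2p peak (4.30-fold) lay in a coding exon near the end. The SE began 24469 bases before the start and ended 3013 bases after it, and every H3K27ac peak within 50 kb of the gene lay in it, in its last part over the promoter. In NIH3T3 cells no Ctr9 or H3K27ac peak lay within 50 kb.

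Nr0b1 (chrX:86191764-86195947, plus strand), also called Dax1, is an orphan nuclear receptor that restrains other receptors and also OCT4. Its level in mESCs was 145 TPM, from 4963 estimated counts. It was listed at 0 in NIH3T3 cells. That is 1676-fold over the floor of 3 counts, or 1630-fold at the lower limit of its own counts. Its 3 Ctr9 peaks within 50 kb all lay at the gene, the strongest (6.57-fold) 614 bases past the end. RNAPII Ser5p (5.99-fold) lay 35 bases after the start, at the promoter whose TBP box is printed above, and H3K27ac (3.16-fold) 727 bases after it. There was no SE, NELFA or RNAPII Ser2p peak within 50 kb, and no peak of either NIH3T3 list.

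Tcl1 (chr12:105216750-105222793, minus strand), a coactivator of the kinase AKT that promotes mESC proliferation, was at 146 TPM in mESCs from 4932 estimated counts. It was listed at 0 in NIH3T3 cells, which is 1254-fold over the floor of 3 counts, or 1219-fold at the lower limit of its own counts. Tcl1-201, which encodes 116 amino acids, held 76.5% of the gene's TPM. Its level was close to that of Nr0b1, and no NELFA, RNAPII Ser5p or RNAPII Ser2p peak was called within 50 kb. Ctr9 gave 6 peaks, all at the gene, the strongest (11.1-fold, 3731 bases) 1117 bases past the end and the one nearest to the start only 2.50-fold. The nearest H3K27ac peak lay 1743 bases before the start. The neighbouring family genes Tcl1b1, Tcl1b3, Tcl1b4 and Tcl1b5 were at 0 TPM in both lines, and Tcl1b2 was at 0.261 TPM in mESCs and 0 in NIH3T3 cells.

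Dppa3 (chr6:122626410-122630272, plus strand), also called Stella, was the least abundant of the 10 genes. It was at 1.23 TPM in mESCs from 15 estimated counts (8.40 to 24.7) and listed at 0 in NIH3T3 cells, which is 5.62-fold over the floor of 3 counts, or 3.14-fold at the lower limit of its own counts. It missed the 4-fold call on log2(TPM + 1), at 1.16. Its processed copy Dppa3-ps was at 0 TPM in both lines. No list had a peak at the gene. The peaks within 50 kb lay on 2 sides. Upstream, the strongest Ctr9 peak (11.97-fold, 7821 bases) had its summit 22063 bases before the start, between the end of Gdf3 and the start of Apobec1. The 1 NELFA peak (3.34-fold), the 1 RNAPII Ser2p peak (3.26-fold) and 2 of the 3 RNAPII Ser5p peaks (up to 7.03-fold) lay within Gdf3, a TGF-beta ligand of pluripotent cells that was at 68.9 TPM in mESCs and 0.0210 TPM in NIH3T3 cells. Downstream, 36086 to 37832 bases after the start, lay a short SE that the study lists next to Nanog, with Ctr9 at 3.56-fold and RNAPII Ser5p at 5.97-fold. No count of Dppa3 within 50 kb thus includes a peak at the gene itself.

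**Figure D5:**
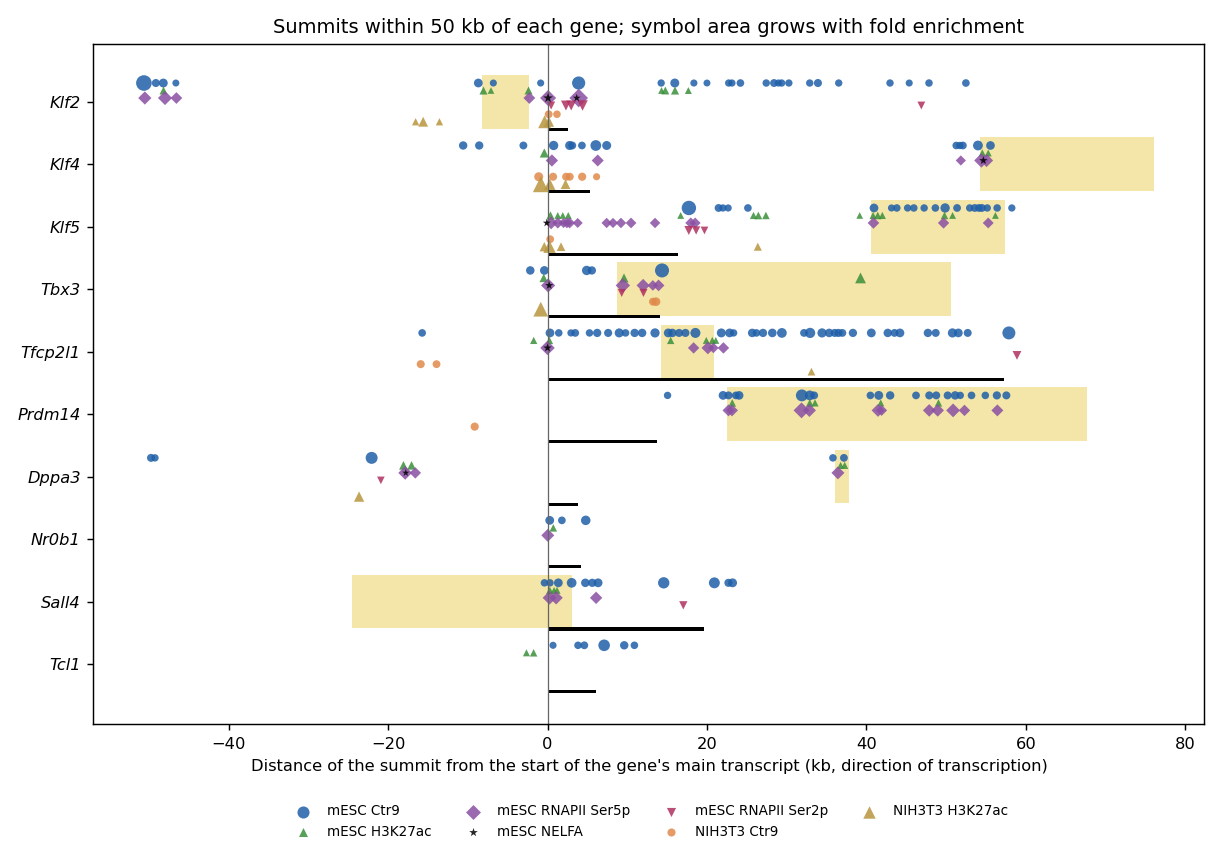
Summits of the 7 peak lists within 50 kb of each gene, by distance in kb from the start of its main transcript in the direction of transcription; black bars are gene bodies, yellow blocks are SEs and symbol area grows with fold enrichment. Summits at Klf4 stop at the edge of the 50 kb window although its SE reaches on, and Prdm14 and Dppa3 show no RNAPII symbol on the gene while the SE of Prdm14 holds 11 RNAPII Ser5p peaks.

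The 8 SEs differed in where they lay and in how Ctr9 lay on them. Those of Tfcp2l1, Tbx3 and Sall4 overlapped the gene, and those of Klf2, Prdm14, Klf5, Dppa3 and Klf4 lay 2269, 8773, 24285, 32224 and 48934 bases from it. The SE of Klf5 held 15 Ctr9 peaks up to 6.27-fold that covered 56.3% of it. The SE of Klf2, 5978 bases long and close to its gene, held 1 Ctr9 peak of 2.42-fold that covered 5.34%, with 3 H3K27ac peaks up to 3.97-fold. The SE of Klf4 was overlapped by 8 Ctr9 peaks, 7 of them with the summit inside it, up to 5.06-fold. The strongest of the 8 (7.19-fold) had its summit just outside. This SE also held the 1 NELFA peak found in any of the 8 SEs, 5.09-fold, beside RNAPII Ser5p of 7.94-fold. NELFA peaks overlapped 21.6% of all 231. RNAPII Ser5p peaks lay in all 8 SEs, between 1 and 11 each, beside 146 of all 231 (63.2%). RNAPII Ser2p peaks lay in 1, the SE of Tbx3 where it overlaps the gene, beside 22 of all 231 (9.52%). These backgrounds differ from the study's own. It reports RNAPII Ser2p at 146 SEs, and RNAPII Ser5p and NELFA at more SEs than the peak lists used here give. The reason for the difference was not tested. In NIH3T3 cells no H3K27ac peak lay in any of the 8, beside 27.3% of all 231, and Ctr9 lay in 1, in the part of the Tbx3 SE that is the end of the gene, beside 10.8%.

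Windows of 300 bases at the strongest Ctr9 and H3K27ac summits in each SE were searched for the same 5 motifs. Shown on the plus strand of GRCm38 are the strongest H3K27ac summit of the 8 (Tbx3) and the window with an OCT motif (Klf5), with matches in capitals.
Tbx3 SE at H3K27ac, chr5:119709984-119710283: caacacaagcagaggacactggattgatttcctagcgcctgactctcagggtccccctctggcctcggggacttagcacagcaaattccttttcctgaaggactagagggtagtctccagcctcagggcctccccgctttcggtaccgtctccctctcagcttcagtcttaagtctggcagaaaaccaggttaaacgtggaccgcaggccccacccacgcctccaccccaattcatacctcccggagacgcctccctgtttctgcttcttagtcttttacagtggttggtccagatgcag
Klf5 SE at H3K27ac, chr14:99339972-99340271: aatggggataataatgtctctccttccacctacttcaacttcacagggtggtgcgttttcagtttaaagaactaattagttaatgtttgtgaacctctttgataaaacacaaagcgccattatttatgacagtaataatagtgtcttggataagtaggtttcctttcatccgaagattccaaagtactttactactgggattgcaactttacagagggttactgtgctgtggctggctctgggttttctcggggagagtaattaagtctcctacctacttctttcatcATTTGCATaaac
Of the 8 H3K27ac windows, that of Klf5 held the OCT motif (on the minus strand) and that of Sall4 the STAT motif, which 0.793% and 0.948% of the windows at all 19305 H3K27ac summits held. Of the 8 Ctr9 windows, that of Klf5 held TATAAA, which 12.3% of the windows at all 44738 Ctr9 summits held. The other windows held none of the 5 motifs.

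Outside the SEs, the strongest Ctr9 peak within 50 kb of any of the 10 genes was 22.2-fold and lay 50632 bases before the start of Klf2, at the edge of the window. An RNAPII Ser5p peak of 6.28-fold lay 116 bases from it, a further one of 7.54-fold and an H3K27ac peak of 3.96-fold lay 47984 and 48171 bases before the start, and no start of another protein-coding gene was within 1 kb. The locus is not among the listed SEs.

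The core genes give the nearest comparison. The 5 core genes were at 211 to 1402 TPM in mESCs and at most 0.511 TPM in NIH3T3 cells. All 5 were at least 4-fold higher in mESCs, beside 9.46% of all genes tested. Ctr9, H3K27ac, RNAPII Ser5p and RNAPII Ser2p peaks of mESCs lay at all 5 core genes and NELFA peaks at 3, whereas at the 10 genes the counts were 9, 6, 7, 5 and 4. No core gene had a Ctr9 peak of NIH3T3 cells within 50 kb, and 6 of the 10 genes had one. At Tfcp2l1 and Prdm14 such peaks lay only upstream and not at the gene. With a −log10 q of at least 5 the 6 fell to 4. With 5 and 10 genes these are counts and no test of a difference.

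Over all genes tested, 9.46% were at least 4-fold higher and 8.81% lower in mESCs, and the following counts stand beside these shares. Of 26 other pluripotency-associated genes, 18 were at least 4-fold higher in mESCs and 0 were lower. Their median difference was 4.24 on the log2(TPM + 1) scale, and here too the direction is not independent of the choice of genes. The highest in mESCs was Dppa5a at 3190 TPM, and the highest in NIH3T3 cells was Trim28, a corepressor, at 200.0 TPM, with 665 TPM in mESCs. Of 19 formative, primed and lineage genes, 13 had at least 1 TPM in either line, of which 4 were higher and 1 was lower in mESCs, with a median of 1.21. The highest in mESCs was Foxd3 at 22.9 TPM, and the one that was lower was Sall2. Of 28 relatives of the 10 genes, 18 were tested, 7 were higher and 2 lower, with a median of 1.02. Sall2 is in both lists and was 1 of these 2.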

How the data were processed

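The 9 samples with a processed file were 7 ChIP-seq libraries and 2 RNA-seq libraries, 1 per list or table, and the 3 input libraries were not used. The authors aligned ChIP-seq reads to mm10 with Bowtie2 2.3.5.1, removed blacklisted reads and called peaks in each library with MACS2 2.2.6, keeping q-values up to 0.01. The deposited lists give each peak's fold enrichment (a ratio of pileup to local background), −log10 p, −log10 q and a whole-number score made from it. The score and the −log10 p deposited were not used here. RNA levels were quantified by the authors against GENCODE M19 with kallisto 0.46.1, which gave the deposited estimated counts and TPM of 137767 transcripts. The mESC library totalled 26400407 estimated counts and the NIH3T3 library 28849497, and the depth of the ChIP-seq libraries is unknown.

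Gene coordinates came from GENCODE M21 (mm10), with which 99.8% of 21938 protein-coding genes had a TPM. Following the study, a gene's level was that of its transcript with the highest TPM. Differences are of log2(TPM + 1), which understates the change of low genes. Count intervals are exact Poisson at 95%, intervals of ratios rest on the estimated counts of the whole gene except for Tbx3, and a library at 0 was set to a floor of 3 counts. That floor is below 3.69, the upper 95% limit of a count of 0, so folds over it are not strict lower limits. Peaks were assigned by an overlap of at least 1 base. Super enhancers are the coordinates of the study's list of 231, of which no values were used. Sequences came from RefSeq for GRCm38.p6, and all 5 promoters equalled the genome. Computations used Python 3.11.15, pandas 2.3.3, NumPy 2.4.6, SciPy 1.17.1 and Matplotlib 3.10.9, and 8 of 8 checks on simulated data passed.

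All 10 genes are described. Other genes are named where they had the highest level of their list in either line, exceeded a related member or changed against it, or started within 50 kb of a member. Fn1, the relatives Klf7, Klf8, Klf11, Klf15, Sall2, Sall3, Tbx2, Tcl1b1 and Tcl1b2 and the pseudogene Dppa3-ps were chosen for naming with their values in view. The genes and lists were chosen with earlier results of these data known. The count of summits past the gene end, its 3 alternatives, the level of the most abundant coding transcript, the start of the main transcript as the origin of distances and the choice of windows printed were chosen after seeing the data. Alternatives changed the transcript summary, pseudocount, scaling, fold, q cutoff, overlap rule and windows.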

Additional observations from a re-analysis of the deposited data

How the results depend on the processing

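Of 112 alternative values, 93 were rated as the same, 19 as moved and 0 as reversed. These ratings do not measure how far a value moved. The median with TPM summed over transcripts was rated as moved though it rounds to the same 5.09, and a count rated as the same could still differ. At 2-fold, 10 genes were higher in mESCs instead of 7. At a −log10 q of at least 5, NIH3T3 Ctr9 peaks lay within 50 kb of 4 genes instead of 6, and at 3 instead of 4. The median difference of 5.09 over the 10 genes was 5.09 with TPM summed over transcripts, 6.66 with a pseudocount of 0.1 TPM and 5.02 with the median ratio between the lines set to 1, a shift of 0.08 on the log2 scale over 9628 genes. The same 7 genes were at least 4-fold higher under each of these, and with a pseudocount of 0.1 TPM Dppa3 was as well. With the most abundant coding transcript, chosen after seeing the data, Tbx3 joined the 7. RNAPII Ser2p within 50 kb fell from 6 genes to 3 at a −log10 q of at least 5, and at the gene from 5 to 3 at that cutoff and to 3 with 1 kb on each side, in the second case by the narrower window past the gene end. Within 20 kb, 5 genes had a super enhancer instead of 8. The other 12 moved values were differences of single genes under another pseudocount or transcript summary, all in the same direction. No paired analysis was possible because the groups compared hold 1 library each and share fewer than 2 replicate numbers. The depth of the ChIP-seq libraries is unknown, so a missing peak in a short list says little, and Dppa3 rests on 15 counts.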
